A study of Rattus norvegicus with 113 samples.

Results

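The S100 family is a group of small calcium-binding proteins, and 9 of its rat genes were described over every array of the series: S100a1, S100a4, S100a6, S100a8, S100a9, S100a10, S100a11, S100a13 and S100b. They were chosen by name, as the probes whose transcript identifier leads to one of these symbols in the RefSeq gene table, and the rule itself uses no measured value. They are 9 of the 16581 genes that could be named on the larger of 2 array designs and 9 of the 15637 named on the smaller one. S100b has 2 probes on each design, and each of the others has 1. Poly(A)+ RNA of adult male Sprague-Dawley rats was amplified, labelled with 1 dye and hybridized to 113 Agilent arrays, 1 array per tissue sample. TBI rats had a parasagittal fluid percussion injury, which the labels call moderate and the methods severe. Sham rats had the same anesthesia and surgery without the pressure pulse, and naive rats had neither. Hippocampus, and a piece of cortex taken near the injury, were collected at 24 hr, 2 weeks, 3 months, 6 months and 12 months from 4 rats per group, both tissues from the same rats per the methods. The exception is the hippocampus at 24 hr, where the series holds 3 TBI arrays and 2 sham arrays, with naive rats not analysed here. These are whole pieces of tissue, so a lower value can come from fewer cells of a type or from less RNA per cell, and the arrays cannot tell them apart.

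A level below is the log2 of the background-subtracted probe signal minus the median of its array, so that a difference of 1 is a 2-fold change. Probes differ in brightness, and levels are therefore compared between groups and not between genes. As the measure of depth, the share of probes flagged well above background on an array ran from 41.3% to 93%, with a median of 56%. Of the 9 genes, 7 were well above background on all 96 arrays of the larger design and all 17 of the smaller one. S100a9 was so on 92 and 16 of them, and S100a8 on 66 and 13, so S100a8 is near background in most groups outside 24 hr. No probe of the family was saturated on any array. A probe entered a test if at least 1 of the groups compared had it well above background on all its arrays, and a gene is called at an adjusted p under 0.05 in limma, with the p-values adjusted over all tested probes. Among cortex arrays, sham replicate 3 at 2 weeks stood apart, with 93% of probes above background, and naive replicate 4 of that interval had the lowest naive level of 7 of the 9 genes. The TBI results of that interval are given with and without sham replicate 3. The hippocampus arrays bore their label: 4 of 6 tested hippocampal markers were higher there in naive rats and 1 was lower, and 5 of 8 cortical markers were higher in the cortex. The arrays lay on 15 slides, and each group on 1 slide. At 24 hr in both tissues, at 2 weeks and 6 months in the cortex and at 6 months in the hippocampus, TBI and sham lay on different slides, so injury cannot be told apart from slide there. In the hippocampus at 24 hr the sham and TBI slides were also scanned on different days. TBI and naive arrays lay on different slides at every interval, and so did sham and naive arrays in the cortex at 3 and 12 months and in the hippocampus at 2 weeks, 3 months and 12 months, so in those comparisons group and slide cannot be told apart.

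Most S100 proteins bind calcium through a pair of EF-hand loops, commonly as dimers that then grip a partner protein. In brain, S100b and S100a1 are known from astrocytes, and S100b in blood serves as a clinical marker of brain injury. S100a8 and S100a9 form calprotectin, an abundant protein of neutrophils and monocytes that is released as an alarm signal and acts on Tlr4 and the receptor Ager (RAGE). S100a4 binds the heavy chain of non-muscle myosin (Myh9), S100a10 pairs with the annexin Anxa2, S100a11 with Anxa1 and Anxa2, S100a6 with Cacybp, and S100a13 takes part in the release of Fgf1. Most S100a genes are neighbours on chromosome 2 of the rat, and S100b lies on chromosome 20.

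The promoters are shown first, for 4 of the genes that rose together in the hippocampus at 24 hr and for S100b, which did not. Each is the 250 bases before the transcription start on the gene's own strand, from RefSeq on the build GRCr8. They are S100a4 (chr2:178388279-178388528, plus strand), S100a6 (chr2:178398287-178398536, plus), S100a9 (chr2:178490623-178490872, minus), S100a11 (chr2:181874882-181875131, plus) and S100b (chr20:12381082-12381331, minus). Capitals mark the matches to the motifs searched.
S100a4: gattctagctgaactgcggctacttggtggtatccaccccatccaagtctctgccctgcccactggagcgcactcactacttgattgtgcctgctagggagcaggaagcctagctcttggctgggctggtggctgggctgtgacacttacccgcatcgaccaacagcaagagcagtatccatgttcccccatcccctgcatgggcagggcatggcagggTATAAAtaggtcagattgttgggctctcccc
S100a6: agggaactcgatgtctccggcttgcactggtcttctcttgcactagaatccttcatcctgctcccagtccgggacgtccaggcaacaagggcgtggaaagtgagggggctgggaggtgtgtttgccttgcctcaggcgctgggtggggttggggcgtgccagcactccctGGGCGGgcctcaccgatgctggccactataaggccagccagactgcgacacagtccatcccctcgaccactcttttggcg
S100a9: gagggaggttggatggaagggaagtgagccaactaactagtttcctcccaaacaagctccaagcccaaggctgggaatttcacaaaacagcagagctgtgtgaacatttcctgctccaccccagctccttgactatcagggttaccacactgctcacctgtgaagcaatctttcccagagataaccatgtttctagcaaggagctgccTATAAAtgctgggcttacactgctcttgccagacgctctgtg
S100a11: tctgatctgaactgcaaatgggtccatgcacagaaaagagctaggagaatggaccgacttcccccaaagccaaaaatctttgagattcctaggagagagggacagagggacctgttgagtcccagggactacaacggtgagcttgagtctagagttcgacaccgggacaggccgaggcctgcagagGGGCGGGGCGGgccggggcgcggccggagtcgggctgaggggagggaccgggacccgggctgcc
S100b: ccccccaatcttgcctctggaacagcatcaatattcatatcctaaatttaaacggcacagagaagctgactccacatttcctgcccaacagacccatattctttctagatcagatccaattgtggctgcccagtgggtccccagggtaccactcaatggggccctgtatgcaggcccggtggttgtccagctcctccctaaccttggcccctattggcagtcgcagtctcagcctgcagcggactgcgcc
S100a13 also has an entry (chr2:178296770-178297019, plus), and S100a1, S100a8 and S100a10 are named here only. S100a4 and S100a9 hold a TATAAA, 31 and 42 bases before the start. S100a6 and S100a13 hold 1 GGGCGG each (the SP1 motif), at 80 and 82 bases, and S100a11 holds 2 that overlap, at 64 and 59 bases. S100b held none of the letters searched. Of 33469 rat promoter windows of this length, TATAAA occurs in 12.9% and GGGCGG in 30.5%, on either strand. The letters TGANTCA (AP-1, in 6.34% of all windows), TTGCNNAA (C/EBP, 9.22%) and TTCNNNGAA (STAT, 7.67%), and the NF-kB motif (1.3%), were found in none of the 6 windows. A match is a description of these letters and not a binding site.

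In the hippocampus at 24 hr 6 of the 9 genes were higher in TBI than in sham, by 5.27 to 16.1 fold. No member was called lower on its brightest probe, the one it is read from, but a second S100b probe was (log2 -3.06, limma adjusted p = 0.0199). The 6 higher genes were S100a4, S100a6, S100a8, S100a9, S100a10 and S100a11, against 5.63% of all 16738 tested probes called higher. The median log2 difference over the 9 genes was 2.42, and over all tested probes it was -0.01. All 9 genes were tested, and the 3 that did not pass were S100b, S100a1 and S100a13. In each of the 6, every TBI array lay above both sham arrays, as the plot of the hippocampal values at 24 hr shows. Here and below, the share of all probes whose groups separate likewise was not counted, and a lack of overlap is a description only.

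Calprotectin had the steepest differences and the widest spread. S100a9 was at 0.50 and 0.65 in the sham rats and at 4.84, 5.91 and 3.00 in the TBI rats. The log2 difference was 4.01 ± 0.77 (SE, n = 3 and 2), a 16.1-fold rise (limma adjusted p = 0.0236). Its partner S100a8 was at 0.61 and 0.04 in sham and at 3.96, 5.40 and 2.11 in TBI, a rise of 11.3 fold (log2 3.50 ± 0.87, limma adjusted p = 0.0482). TBI replicate 3 was the lowest TBI array for both, and replicate 2 the highest.

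The intracellular members S100a4, S100a6 and S100a10 differed by less but more evenly. S100a4 rose from 5.16 and 5.74 to 8.09, 8.15 and 7.69, which is 5.76 fold (log2 2.52 ± 0.23, limma adjusted p = 0.00416). S100a6, the calcyclin gene, rose from 3.69 and 3.43 to 6.31, 6.21 and 6.16, or 6.34 fold (log2 2.66 ± 0.15, limma adjusted p = 0.00322). S100a10, the annexin partner, rose from 6.50 and 6.31 to 8.86, 9.05 and 8.54, or 5.34 fold (log2 2.42 ± 0.19, limma adjusted p = 0.00338). The TBI arrays of each of these genes lay close together and well apart from sham. S100a11 rose 5.27 fold (log2 2.40 ± 0.51, limma adjusted p = 0.0322), from 2.13 and 3.16 to 5.91, 4.96 and 4.27, with TBI replicate 1 highest. Leaving out each of the 5 arrays in turn, S100a4, S100a6 and S100a10 were called every time. S100a11 and S100a8 were then called only without TBI replicate 3 (limma adjusted p = 0.0381 and 0.0228), and S100a9 only without TBI replicate 2 or 3 (0.027 and 0.0144). When every probe of the array was tested, dim ones included, none of the 6 passed (limma adjusted p = 0.0635 to 0.0674 for S100a4, S100a6 and S100a10).

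**Figure D1:**
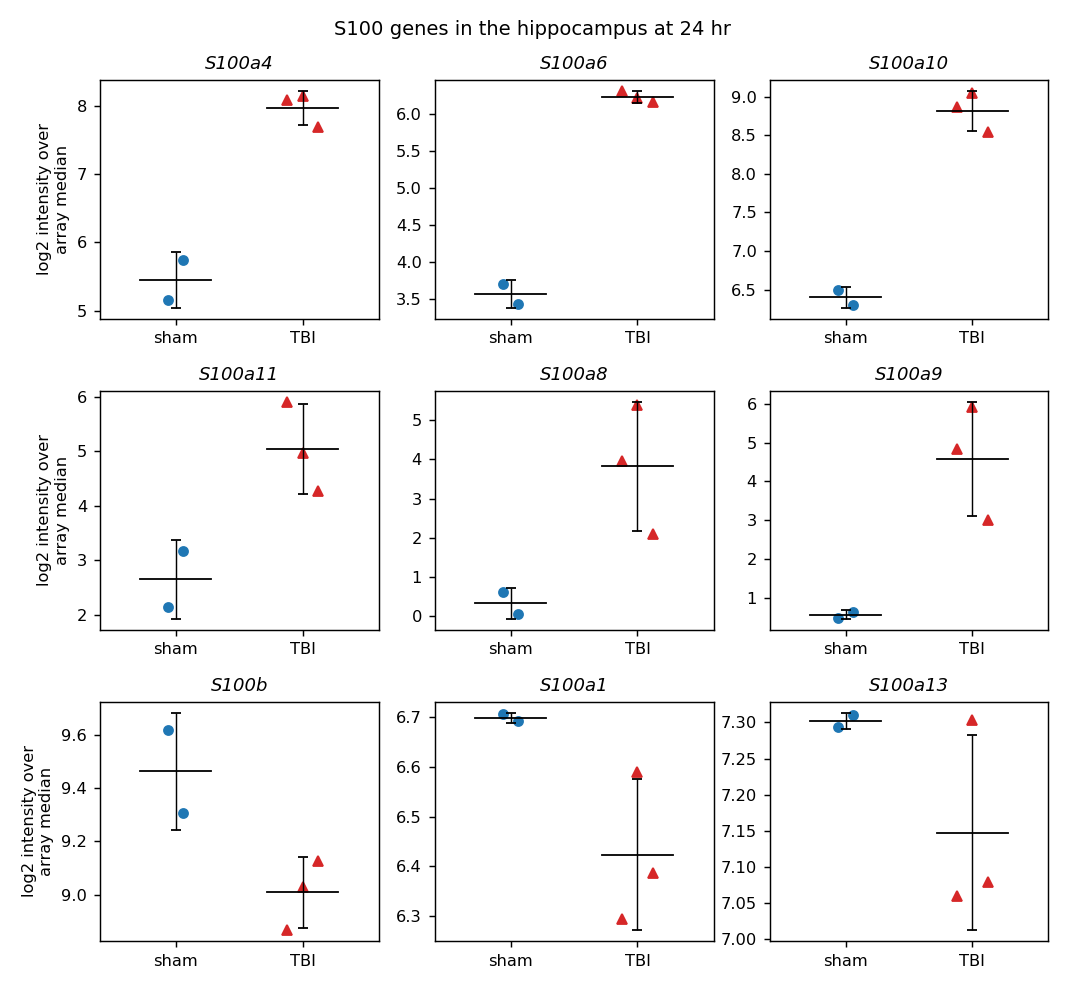
Level of each of the 9 S100 genes in the hippocampus at 24 hr (y axis, log2 over the array median), each point 1 array, with 2 sham and 3 TBI rats, long bars at the group means and error bars of 1 SD. For S100a4, S100a6, S100a8, S100a9, S100a10 and S100a11 all TBI points lie above all sham points. S100b and S100a1 lie lower in TBI without passing the test.

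Astrocyte members went the other way without passing the test on their brightest probes. S100b was at 9.62 and 9.31 in sham and at 8.87, 9.03 and 9.13 in TBI, a log2 difference of -0.46 (95% interval -0.86 to -0.05, limma adjusted p = 0.125), and its groups did not overlap. A second, dimmer S100b probe, above background on 13 of 17 arrays of this design, gave -3.06 (limma adjusted p = 0.0199), so the 2 probes differ in both size and call. S100a1 differed by -0.27 (limma adjusted p = 0.269) and S100a13 by -0.15 (0.515).

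Among the genes of proteins that S100 dimers bind, some were higher and some lower at that interval. The lists were written with earlier results of these data known. Of 16 tested partner genes in the hippocampus at 24 hr, 4 rose and 2 fell, where 5.63% of all probes were called higher and 7.84% lower. Anxa2, the S100a10 and S100a11 partner, rose by 2.68 on the log2 scale (limma adjusted p = 0.00356) and Anxa1 by 2.26 (0.00494). Myh9, the myosin that S100a4 binds, rose by 1.19 (0.0213), and the membrane linker Ezr by 0.91 (0.0171). Fgf1, the growth factor carried by S100a13, fell by 1.04 (0.0134), and the vesicle calcium sensor Syt1 fell by 0.70 (0.0355). The S100a6 partner Cacybp differed by 0.23 (0.282). Over the 16 genes the median difference was 0.12, close to that of all named genes (0.01).

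Among 14 tested receptor and signaling genes, 4 rose and none fell. Cd14, a co-receptor of Tlr4, rose by 3.48 (limma adjusted p = 0.0161), Tlr4 by 1.47 (0.0162), its partner Ly96 by 1.03 (0.0253) and the adaptor Myd88 by 0.76 (0.0326). The other calprotectin receptor, Ager, differed by -0.41 (0.242). Of 8 further S100 genes on the array, 2 were tested and both rose, S100a3 by 1.66 (0.0147) and S100a16 by 0.65 (0.0482). Of 8 calcium-handling partners of S100a1 and S100b, among them the calmodulin genes, Ryr2 and Atp2a2, none passed the limma test, 7 lay below 0, and the median was -0.31.

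Some neutrophil, macrophage and reactive astrocyte markers were higher on the same arrays, and the part of these cells in the S100 result was not tested. The summed linear level of 13 neutrophil markers was 10.8 and 26.2 in sham and 568, 519 and 140 in TBI, again lowest in TBI replicate 3. Of 6 tested neutrophil markers 3 rose, namely Lcn2, Il1r2 and Mmp9, which other brain cells can also express (Lcn2 is on the reactive astrocyte list as well). Camp, Cxcr2, Elane, Fpr1, Ltf, Mmp8 and Np4, which are closer to neutrophils alone, were above background on none of the arrays compared. The summed level of 11 monocyte and macrophage markers was 75.3 and 95.2 in sham and 686, 475 and 327 in TBI, and 6 of 8 tested rose, among them Lgals3, Msr1 and Cd14, which is also counted with the receptors above. For reactive astrocyte markers it was 91.8 and 173 in sham and 971 to 2480 in TBI, with 8 of 11 tested higher. Of the 12 microglia markers 1 rose (Tyrobp), and of 9 astrocyte markers 3 fell.

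In the cortex at 24 hr none of the 9 genes was called for TBI against sham (limma), against 0.286% of all 25867 tested probes, and 4 had an unadjusted p under 0.05. The largest differences belonged to the genes that rose in the hippocampus. S100a4 was at 4.25, 6.48, 4.94 and 6.51 in sham and at 7.88, 7.34, 6.97 and 7.89 in TBI, and the groups did not overlap. The log2 difference was 1.98 ± 0.54 (limma adjusted p = 0.0873). S100a8 differed by 2.66 (0.181), S100a9 by 2.51 (0.123), S100a10 by 1.21 (0.0984), S100a11 by 0.99 (0.26) and S100a6 by 0.41 (0.555). Without TBI replicate 3, which had the lowest S100a8 and S100a9 of its group, S100a8 (log2 3.76, limma adjusted p = 0.0396), S100a9 (3.30, 0.0377) and S100a10 (1.49, 0.0404) were called.

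The sham rats of that interval were not alike. S100a9 was at 1.84, 3.89, 1.79 and 4.95 in sham, at 6.89, 5.66, 3.26 and 6.70 in TBI and at 1.47, 2.30, 1.21 and 2.12 in naive. Sham replicates 2 and 4 were the higher of their group for S100a4, S100a6, S100a8, S100a9, S100a10 and S100a11. The same arrays had the higher summed neutrophil markers, 33.8, 183, 18.7 and 130 over sham replicates 1 to 4, against 13.1 to 15.3 in naive and 204 to 737 in TBI. The summed monocyte and macrophage markers were 92, 251, 103 and 334 in sham, 75.2 to 101 in naive and 263 to 1200 in TBI. Reactive astrocyte markers, which share Lcn2 with the neutrophil list, were likewise higher in sham replicates 2 and 4. They summed to 223, 1290, 307 and 865 in sham, 98.6 to 210 in naive and 992 to 2250 in TBI. The part of any of these cells in the S100 values was not tested.

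Measured against naive cortex, 6 members were higher in TBI at 24 hr and 2 were lower. Of all 25939 tested probes 6.36% were called higher and 11% lower. S100a4 rose by 3.00 ± 0.54 (limma adjusted p = 0.00856), from 5.81, 3.80, 4.35 and 4.13 in naive rats, and no TBI array reached down to them. S100a6 rose by 2.10 (0.00814), S100a11 by 2.39 (0.0102), S100a10 by 1.79 (0.0102), S100a9 by 3.85 (0.013) and S100a8 by 3.82 (0.0309). Leaving out each array in turn ended the S100a8 call in 7 of 8 cases, keeping it without TBI replicate 3, while the other 5 rises were called in all 8.

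S100b fell in TBI cortex against naive, by 0.77 ± 0.12 on the log2 scale (limma adjusted p = 0.00757). It was at 10.82, 10.58, 10.51 and 10.46 in naive, at 9.97, 9.96, 10.13 and 9.95 in sham and at 9.78, 9.82, 10.09 and 9.61 in TBI. Both surgical groups thus lay below naive without overlap, and TBI and sham overlapped (difference -0.18, 95% interval -0.45 to 0.09). S100a1 fell by 0.58 against naive (limma adjusted p = 0.028), a call lost in 5 of 8 runs that left out an array, and S100a13 differed by -0.46 (0.176).

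Sham surgery alone moved 2 members in the cortex at 24 hr, on arrays of the same slide as naive. S100a6 was higher by 1.69 ± 0.35 (limma adjusted p = 0.0113), with sham at 5.23, 7.19, 5.28 and 6.13 and naive at 4.14, 3.96, 4.40 and 4.57. S100b was lower by 0.59 ± 0.12 (0.0115), and its second probe by 0.68 (0.00802). Of all 23816 tested probes 0.936% were called higher and 18.2% lower, and the median of all probes was -0.20. With arrays scaled to the 75th percentile that median was -0.02, 161 probes were called higher and 249 lower instead of 223 and 4337, and S100b no longer passed (-0.41, limma adjusted p = 0.0858). S100a11 differed by 1.4 (0.0548) without overlap.

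**Figure D2:**
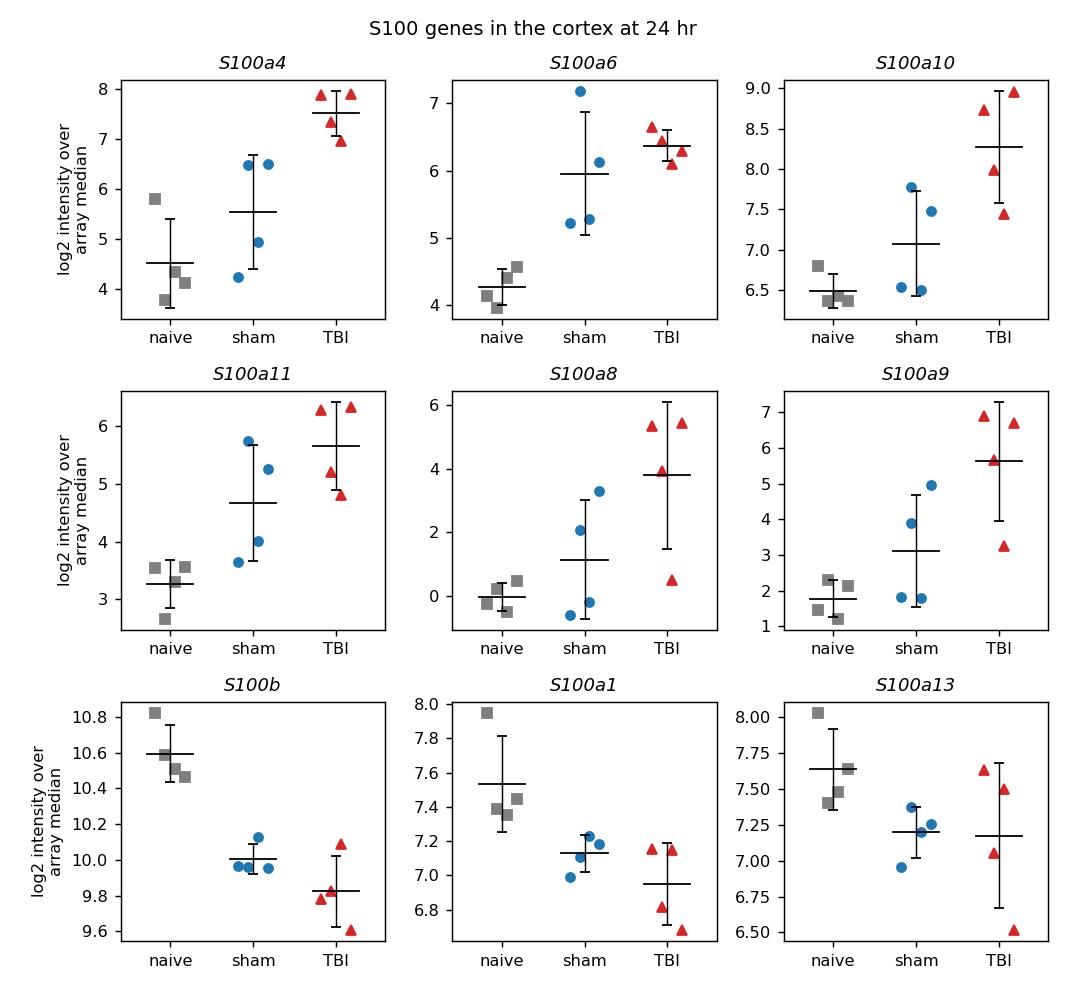
Level of each of the 9 S100 genes in the cortex at 24 hr (y axis, log2 over the array median), with 4 naive, 4 sham and 4 TBI rats, each point 1 array, long bars at the group means and error bars of 1 SD. Sham means lie between the naive and TBI means for all 9 genes. From naive to TBI the means fall for S100b, S100a1 and S100a13 and rise for the others. S100b is highest in naive rats.

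S100a4 was the member called higher in TBI than in sham in the cortex when all 5 intervals were averaged. In most of these intervals TBI and sham lay on different slides, so injury cannot be told apart from slide in this average. The mean of the 5 TBI minus sham differences was 1.68 ± 0.30 (95% interval 1.09 to 2.28), or 3.22 fold, with limma adjusted p = 0.000376. It was the only member called, against 1.82% of all probes called higher, and it was called in all 40 runs that left out 1 array (1.43 to 1.78). S100a6 averaged 0.75 (limma adjusted p = 0.0577), S100a11 0.68 (0.107) and S100b 0.29 (0.517). Without cortex sham replicate 3 of 2 weeks, S100a4 averaged 1.43 (6.39e-05) and S100a6 was called too (0.55, 0.0349), with 2.57% of all probes called higher. With naive replicate 4 of that interval also left out, a choice made after seeing the data, 4 members were called, namely S100a4 (1.43, 1.28e-05), S100a6 (0.55, 0.0118), S100a13 (0.28, 0.0267) and S100a11 (0.49, 0.0454), and 6.07% of all probes. Over the last 3 intervals alone no member was called (S100a4 0.87, limma adjusted p = 1; 1 member with an unadjusted p under 0.05), and neither was any probe (0%).

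At 2 weeks in the cortex the S100a4 result rested on which arrays entered. The TBI rats were at 6.81, 7.75, 7.05 and 7.39, the naive rats at 3.58, 5.09, 5.33 and 2.36, and 3 of the sham rats at 4.65, 4.84 and 4.55. Sham replicate 3 was at -0.36, and 7 of the 9 genes had their lowest level there by a wide margin. With all arrays no member was called for TBI against sham (S100a4 3.83, limma adjusted p = 0.417; 1 of 8 tested genes with an unadjusted p under 0.05), against 0.00848% of all probes, and the median of all probes was 0.95. Without sham replicate 3 that median was 0.01 and S100a4 rose by 2.57 ± 0.42 (limma adjusted p = 7.37e-06), the only member among 2.11% of all probes called higher. Without both arrays S100a4 (2.57, 0.000801), S100a13 (0.82, 0.0414) and S100a6 (0.68, 0.0468) were called, with 4.02% of all probes. The p of S100a4 was then larger although its SE was smaller (0.35), so the smaller p depends on naive replicate 4 being in the fit. Against naive rats no member was called with all arrays (0.124% of all probes; 2 members at an unadjusted p under 0.05). Without both arrays S100a4 (2.58), S100a6 (1.55), S100a11 (1.26) and S100a13 (0.92) rose (limma adjusted p = 0.000945, 0.000339, 0.002 and 0.025), with 4.26% of all probes called higher. For sham against naive no member or probe was called in limma with all arrays (0%; no member at an unadjusted p under 0.05). Without sham replicate 3 no member was called either, but the other sham arrays lay above all naive arrays for S100a6 (4.7 to 4.84 against 2.43 to 3.99, difference 1.24, limma adjusted p = 0.253) and S100a11 (3.8 to 4.13 against 1.85 to 3.65, difference 1.09, 0.457), and both had an unadjusted p under 0.05.

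**Figure D3:**
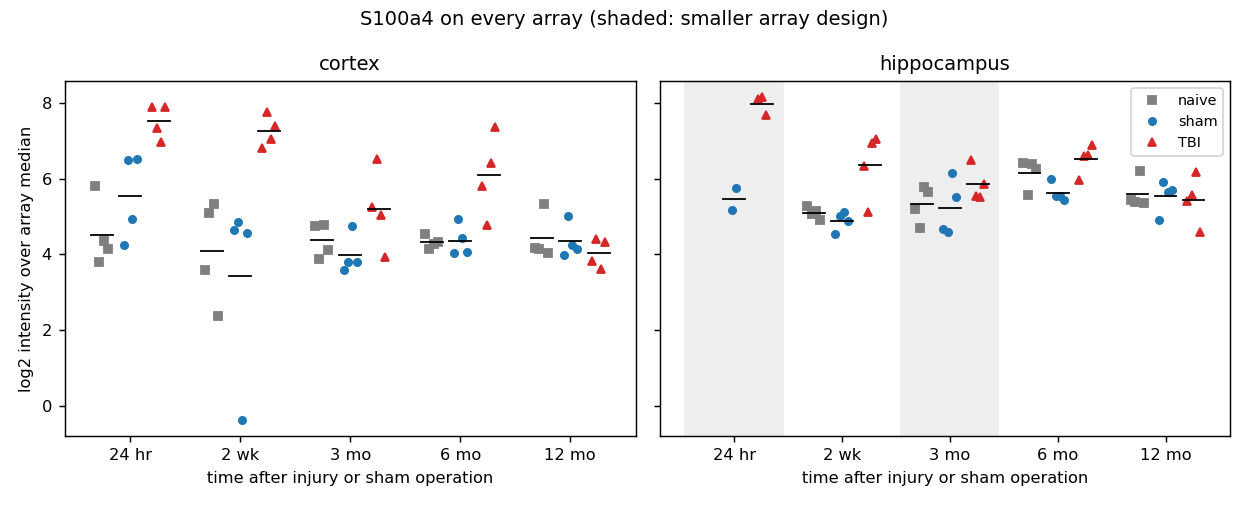
S100a4 level (y axis, log2 over the array median) at each interval in cortex and hippocampus, each point 1 array of a naive, sham or TBI rat, with bars at the group means and the smaller array design shaded. TBI means lie above sham up to 6 months in both tissues and below both control means at 12 months, and cortex sham replicate 3 at 2 weeks is far below the rest.

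In the hippocampus at 2 weeks S100a4 was at 6.34, 5.11, 6.93 and 7.03 in TBI and at 4.54, 5.02, 5.12 and 4.87 in sham, where TBI replicate 2 lay within the sham range. The difference was 1.46 ± 0.34 (limma adjusted p = 0.0542), so no member was called, against 1.84% of all probes, and 4 of 8 tested had an unadjusted p under 0.05. Without TBI replicate 2 it was 1.88 (limma adjusted p = 0.00144) and S100a13 was called as well (0.52, 0.0131). It also passed with arrays scaled to the 75th percentile (0.0484). Against naive S100a4 rose by 1.26 (limma adjusted p = 0.034; 4.04% of all probes called higher), a call kept in 1 of 8 runs that left out an array, the one without TBI replicate 2. S100a8 was lower than in naive by 1.22 (0.0306; 8.82% of all probes lower), at -1.42, -1.85, -1.21 and -0.25 in TBI with 2 arrays above background. It entered that test through the naive arrays alone. That call was kept in 2 of 8 such runs. S100a1 was lower in sham than in naive by 0.32 (limma adjusted p = 0.0439; 3.26% of all probes lower), and no run that left out an array kept that call.

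Later differences of S100a4 did not pass the test. In the cortex it differed by 1.21 at 3 months (limma adjusted p = 0.999), by 1.72 at 6 months (0.197) and by -0.30 at 12 months (0.883, 95% interval -0.99 to 0.38). The TBI rats at 6 months were at 5.80, 4.77, 6.40 and 7.35 and the sham rats at 4.04, 4.93, 4.42 and 4.06, and without TBI replicate 2 the difference was 2.16 (0.0184). In the hippocampus it differed by 0.62 at 3 months (0.882), by 0.90 at 6 months (0.614) and by -0.10 at 12 months (0.9), the last interval running from -0.80 to 0.60. The mean over 2 weeks, 6 months and 12 months in the hippocampus was 0.75 (95% interval 0.38 to 1.13, limma adjusted p = 0.262), with no member called, 2 at an unadjusted p under 0.05 and 0.00387% of all probes called. Without TBI replicate 2 of 2 weeks it was 0.89 (limma adjusted p = 0.0109). Over 6 and 12 months it was 0.40 (limma adjusted p = 1), again with no member and no probe called (0%), and with 1 member at an unadjusted p under 0.05.

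With all arrays, no member's TBI effect passed a test of a difference between intervals or between tissues. For the cortex no member passed limma for 24 hr minus 2 weeks (5 of 9 at an unadjusted p under 0.05; 0.196% of all probes called), 24 hr minus 6 months (1; 0%), 24 hr minus 12 months (3; 0%) or 2 weeks minus 6 months (2; 0.0877%). The S100a4 effect was 2.28 larger at 24 hr than at 12 months (95% interval 0.41 to 4.16, limma adjusted p = 1). Without TBI replicate 3 of 24 hr the S100a9 effect was larger at 24 hr than at 2 weeks, by 3.28 (limma adjusted p = 0.00712), and than at 12 months, by 3.57 (0.0133), and the S100a8 effect was 3.52 larger than at 2 weeks (0.0476). Without sham replicate 4 of 24 hr it was S100a9 that passed against 2 weeks (3.10, 0.0427). Without sham replicate 3 of 2 weeks no member passed for 24 hr minus 2 weeks (4 at an unadjusted p under 0.05), 2 weeks minus 6 months (0) or between tissues at 2 weeks (3, namely S100a4, S100a10 and S100a13). For the hippocampus no member passed for 2 weeks minus 6 months (0 at an unadjusted p under 0.05; 0% of all probes) or 2 weeks minus 12 months (3; 0.00773%), where the S100a4 effect was 1.57 larger at 2 weeks (limma adjusted p = 0.446) and 1.98 larger without TBI replicate 2 of 2 weeks (0.0306). Between tissues no member passed at 24 hr (2.33% of all probes called), 2 weeks (0%), 3 months (0%), 6 months (0.004%) or 12 months (0%), and with all arrays 1 had an unadjusted p under 0.05, at 12 months. At 24 hr and 3 months S100a6 was read from different probes on the 2 designs and was left out. The interval of the S100a4 difference, hippocampus minus cortex, was -1.08 to 2.17 at 24 hr, so these arrays leave room for effects of unlike size.

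The remaining comparisons with sham gave no call for any member. At 3 months in the cortex 0% of all probes were called and 2 of 8 tested members had an unadjusted p under 0.05, S100a4 and S100a6. S100a6 was at 4.49, 4.94, 4.29 and 4.05 in TBI and at 3.48, 3.99, 3.87 and 3.59 in sham, a difference of 0.71 without overlap (limma adjusted p = 0.999). At 6 months in the cortex 5 of 9 members had an unadjusted p under 0.05 (0.0805% of all probes called) and all 9 differences were positive, from 0.09 for S100b to 1.72 for S100a4. On these arrays the summed level of 9 choroid plexus markers was 121 to 1280 in TBI and 6.01 to 69.4 in sham, with 1 of 3 tested called higher, and the median difference of 3 tested ependymal markers was 1.64. Their part in the S100 values was not tested. At 12 months in the cortex 1 of 9 members had an unadjusted p under 0.05 (0%). In the hippocampus it was 1 of 8 at 3 months (0.0134%), 3 of 8 at 6 months (0.0134%) and 2 of 9 at 12 months (0%). At 6 months there, S100a6 was at 3.65, 4.16, 4.12 and 4.56 in TBI and at 3.22, 3.39, 3.33 and 2.96 in sham (difference 0.90, limma adjusted p = 0.791), and S100a9 differed by 0.87 (limma adjusted p = 1). These genes and S100b (10.37 to 10.60 in TBI, 10.23 to 10.36 in sham) had no overlap of TBI and sham.

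The study's methods called a gene at an unadjusted p below 0.05 with a fold of 1.4 or more, and by those thresholds more members pass. The study also filtered genes on background and on the spread of replicates, and tested them in GeneSpring. Here only its thresholds were applied, to the limma p-values, so the counts are not those of the study's procedure. In the cortex 4 of 9 members were then higher at 24 hr (9.08% of all probes higher), 1 of 8 at 2 weeks (4.01%), 2 of 8 at 3 months (1.4%) and 2 of 9 at 6 months (3.48%). In the hippocampus it was 6 of 9 at 24 hr (11.4%), 2 of 8 at 2 weeks (2.71%), 1 of 8 at 3 months (0.435%) and 3 of 8 at 6 months (1.91%). On the brightest probes, none was lower in any of these.

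**Figure D4:**
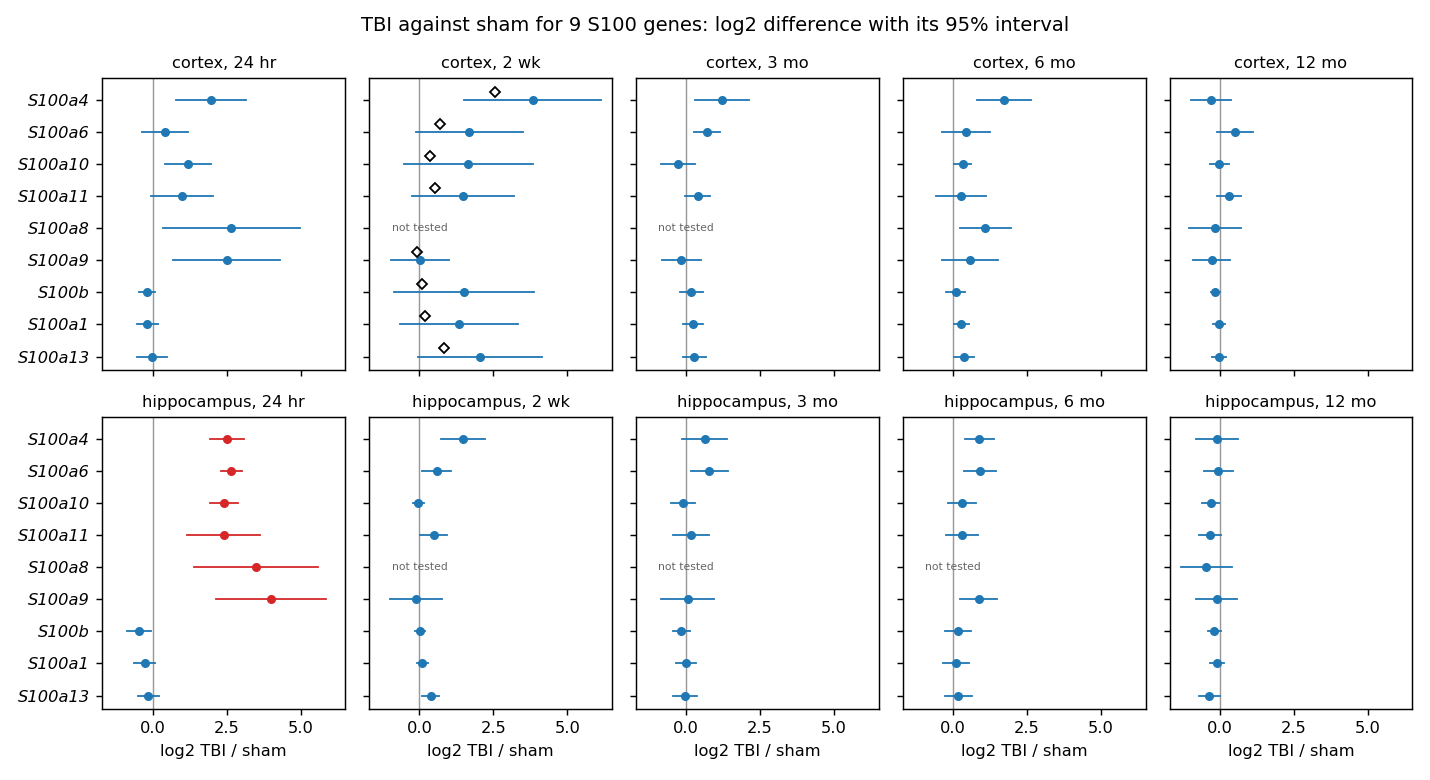
Log2 difference of TBI minus sham (x axis) for each of the 9 S100 genes (y axis), 1 panel per tissue and interval, with bars for the 95% interval. Red points pass limma at an adjusted p under 0.05, which are the 6 genes of the hippocampus at 24 hr, and blue points do not. Open diamonds in the cortex panel of 2 weeks are the differences without sham replicate 3.

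S100b, the best known member in brain injury, showed small differences between TBI and sham at each later interval. They ran from -0.19 at 12 months to 0.17 at 6 months in the hippocampus and from -0.15 at 12 months to 0.17 at 3 months in the cortex, leaving out 2 weeks there. At 2 weeks in the cortex it was 1.52 with sham replicate 3 and 0.09 without it. The mean over 2 weeks, 6 months and 12 months in the hippocampus was 0.00 (95% interval -0.16 to 0.16, limma adjusted p = 0.996). On the second S100b probe the TBI minus sham differences ran from -0.321 at 12 months to 0.236 at 6 months in the hippocampus, without 3 months. In the cortex they ran from -0.169 at 12 months to 0.235 at 6 months, again leaving out 2 weeks. None of them was called in limma. At 12 months in the cortex S100b was lower in TBI than in naive by 0.41 ± 0.07 (limma adjusted p = 0.0039; 1.82% of all probes lower), with the naive arrays on another slide than sham and TBI. The TBI rats were at 9.88, 9.84, 9.87 and 9.86, the sham rats at 9.91, 10.04, 10.07 and 10.04 and the naive rats at 10.25, 10.18, 10.37 and 10.30. TBI thus lay below sham as well as naive without overlap. All 8 runs that left out an array kept the call against naive, but the second S100b probe gave -0.15 there (limma adjusted p = 0.201). Sham was lower than naive there by 0.26 (0.0477; 0.258% of all probes lower), with 0.02 on the second probe (0.922), and 1 of 8 runs that left out an array kept that call.

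**Figure D5:**
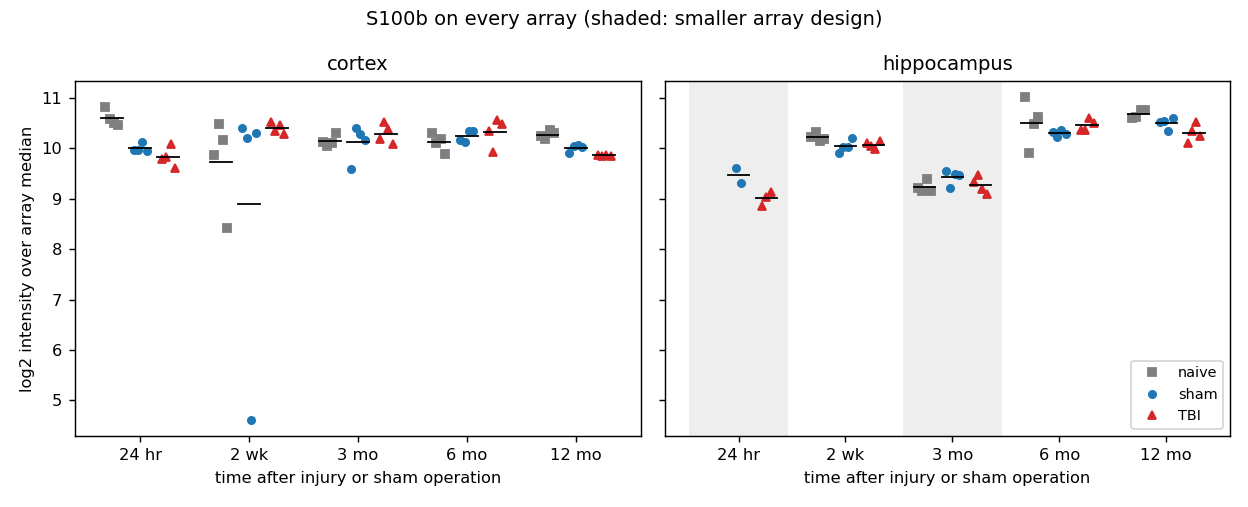
S100b level (y axis, log2 over the array median) at each interval in cortex and hippocampus, each point 1 array of a naive, sham or TBI rat, with bars at the group means and the smaller array design shaded. In the cortex naive rats are highest at 24 hr and 12 months, and cortex sham replicate 3 at 2 weeks lies at 4.62.

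In the other comparisons with naive rats no member was called. For sham against naive these were cortex at 3 months (0.328% of all probes called; 1 of 8 members at an unadjusted p under 0.05) and 6 months (0%; 0 of 8), and hippocampus at 3 months (0%; 0 of 8), 6 months (3.47%; 3 of 7) and 12 months (3.31%; 1 of 9). For TBI against naive they were cortex at 3 months (0.307%; 1 of 8) and 6 months (0.249%; 4 of 9), and hippocampus at 3 months (0.0062%; 1 of 8), 6 months (3.77%; 0 of 8) and 12 months (3.25%; 4 of 8). At 12 months in the hippocampus S100a1 differed from naive by -0.42 (limma adjusted p = 0.0543) and S100b by -0.38 (0.0589), both without overlap. S100a8 was above background on none of the 4 naive arrays there and on all 4 sham arrays, and entered the test through sham alone (fitted difference 0.82, limma adjusted p = 0.252). The sham mean was 1.11-fold over the background level, a value that takes no account of the spread between rats.

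Among naive rats of 2 weeks, 6 months and 12 months, S100a4 was higher in hippocampus than in cortex by 1.33 ± 0.24 (limma adjusted p = 5.01e-05). S100a13 was higher by 0.99 ± 0.18 (7.45e-05) and S100a1 by 0.63 ± 0.17 (0.00512), against 20.4% of all 24612 probes higher in the hippocampus. S100a6 was lower by 0.59 ± 0.18 (0.0115), against 10.5% of all probes. The tissues lay on different slides and were scanned on different days, and tissue cannot be told apart from these. Both tissues of a rat entered as separate arrays. With same-numbered arrays as a block these 4 genes were still called, and S100a9 too (-0.47, limma adjusted p = 0.0354). Of 10 astrocyte markers 3 were higher in the hippocampus and none lower, and of 4 tested choroid plexus markers 3 were higher and 1 lower, and their part in the result was not tested. The 4 genes were called in each of the 24 runs that left out an array. S100b differed by 0.43 (limma adjusted p = 0.0564) and by 0.51 on its second probe (0.0256). The median of all probes was 0.16. With arrays scaled to the 75th percentile it was 0.01, with 7244 probes higher and 6437 lower instead of 5016 and 2578, and 8 members were called, S100b (0.28) among those higher and S100a8, S100a9 and S100a11 (-0.48, -0.61 and -0.36) among those lower. The 4 genes called above kept their direction under every scaling tried, with S100a6 between -0.74 and -0.59.

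From 2 weeks to 12 months, when the naive rats had aged by most of a year, S100b was higher in the naive hippocampus by 0.46 ± 0.14 (limma adjusted p = 0.0486; 2.34% of all probes higher) and by 0.50 on its second probe (0.0453). It was at 10.24, 10.32, 10.15 and 10.19 at 2 weeks and at 10.60, 10.62, 10.76 and 10.77 at 12 months. None of the 8 runs that left out an array kept the call (limma adjusted p = 0.0506 to 0.13). S100a8 was lower at 12 months by a fitted 1.44 (limma adjusted p = 0.032; 1.31% of all probes lower), and it entered this test through the 2-week arrays alone. No 12-month array was above background. The 2-week mean was 1.72-fold over the background level, a value that takes no account of the spread between rats. That call was kept in 2 of 8 such runs (limma adjusted p = 0.0333 to 0.105). In the naive cortex no member differed with age in limma (0.163% of all probes called; 0 members at an unadjusted p under 0.05). Age and slide cannot be told apart here, since naive rats of both ages lay on different slides.

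Outside the hippocampus at 24 hr few related genes passed the test for TBI against sham, and few of all probes did. At 2 weeks in the hippocampus S100a3 rose by 1.09 (limma adjusted p = 0.0416) and Tlr4 by 1.03 (0.0387), the calcium pump Atp2a2 fell by 0.32 (0.0483), and none of 15 tested partner genes passed. Of the marker lists there, 7 of 12 microglia markers, 4 of 8 monocyte and macrophage markers, 2 of 10 reactive astrocyte markers and 1 of 5 neutrophil markers rose, where 0.92% of all probes were called higher. In the cortex no partner, receptor or further S100 gene passed at any interval for TBI against sham in limma, with all arrays included. The summed monocyte and macrophage markers at 2 weeks in the cortex were 255 to 479 in TBI, 64.6, 89.6, 89.2 and 31.9 in naive and 114, 95.3, 12.6 and 109 in sham. Whether these cells carry the S100a4 difference was not tested.

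Over all cortex arrays the members fell into groups that vary together, which is given as a description: the 60 arrays share injury groups, slides and scaling. Without the sham array that stands apart (59 arrays) Pearson's r was 0.918 for S100b with S100a1, 0.924 for S100a8 with S100a9, 0.929 for S100a6 with S100a11 and -0.197 for S100b with S100a8. On 36 hippocampus arrays of the larger design, which leave out 24 hr, these were 0.93, 0.652, 0.305 and 0.106. So S100b and S100a1 moved together in both tissues, and the link of S100a6 and S100a11 was weak in the hippocampus.

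The genes most like each member across the 60 cortex arrays differ between these groups, with r on the 59 arrays and on the 36 hippocampus arrays beside it. S100b was most like Apoe, a lipid carrier of astrocytes (r = 0.988, 0.936 and 0.949), Ndrg2 (0.987, 0.931 and 0.935) and Gpr37l1 (0.987, 0.926 and 0.896). S100a1 was most like Apoe (0.984, 0.94 and 0.914), Plaat3 (0.981, 0.921 and 0.947) and Cst3 (0.98, 0.92 and 0.926), and S100a13 like Clu (0.971, 0.909 and 0.699), Plaat3 (0.969, 0.893 and 0.847) and Fxyd1 (0.968, 0.912 and 0.765). S100a4 was most like Cd44, a hyaluronan receptor (0.943, 0.938 and 0.844), Gpnmb, a glycoprotein of phagocytes (0.931, 0.934 and 0.827), and Lcp1, an actin bundler of leukocytes (0.927, 0.904 and 0.478). S100a6 was most like Emp3 (0.957, 0.945 and 0.75), Anxa1 (0.934, 0.912 and 0.525) and Cp (0.93, 0.91 and 0.694), and S100a11 like Emp3 (0.969, 0.971 and 0.48), its partner Anxa2 (0.956, 0.957 and 0.586) and Tagln2 (0.953, 0.95 and 0.328). S100a10 was most like Rps27l (0.955, 0.909 and 0.761), Mcm2 (0.939, 0.878 and 0.681) and Myl12a (0.937, 0.876 and 0.656). S100a8 was most like Mcm6 (0.818, 0.823 and 0.01), Nes (0.809, 0.813 and 0.001) and Mcm3 (0.791, 0.796 and 0.466), and S100a9 like Nes (0.856, 0.855 and 0.034), Tubb6 (0.855, 0.854 and 0.089) and Lst1 (0.85, 0.852 and 0.417). For the calprotectin genes r in the hippocampus arrays, where S100a8 is near background, thus ran from 0.001 to 0.466.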

How the data were processed

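RNA of hippocampus and cortex was measured on 1-colour Agilent arrays. The authors deposited, for each array, the spot intensities from Agilent Feature Extraction 11.5.1.1, where the processed signal is background-subtracted, with the flags for well above background and for saturation. A table of normalized intensities that the authors deposited for each design served as an alternative.

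The analysis ran in R 4.3.3 on limma 3.58.1. Spots of a probe were averaged without flagged ones, and the processed intensity was taken as log2 minus the array's median over all probes, as in the study's methods. Probes were named through RefSeq (46.3% of the larger design, 61.4% of the smaller), and a gene was read from its brightest probe. For each tissue and interval all groups were fitted in limma, and p-values were adjusted by Benjamini-Hochberg over all tested probes. Averages and differences of effects were contrasts in models of all arrays of a tissue, or of both tissues. Per the methods each group and interval had 4 rats, and hippocampus and cortex came from the same rats. The lists' summed levels are linear levels over the array median. The limma fit was tried on simulated arrays for some comparisons of TBI against sham, and the other steps were not. No column of per-sample values was left unmapped.

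The members and the gene lists were chosen with earlier results of these data known. Named genes are all members, of each list the genes called for TBI against sham (up to 6 by adjusted p), and for each member the 3 named genes with the highest r over 60 cortex arrays. Partners named in the text without a call were singled out after their values were seen. The alternatives were scaling to the 75th percentile, quantile normalization, normexp on the median spot and background signals (offset 50, since a mean signal column was not used here), the deposited table, other filters on dim probes, 2 groups alone, the mean over a gene's probes, a replicate block and leaving out each array. Replicate numbers did not pair the groups of a tissue. Between hippocampus and cortex, all 4 same-numbered pairs deviated together in 5 of 9 groups (r of at least 0.1).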

Additional observations from a re-analysis of the deposited data

Results flagged for a closer look

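In 16 of 243 gene and group pairs of 4 arrays, 1 array lay far from the other 3 by Dixon's test, where chance gives about 1 in 20. Cortex sham replicate 3 of 2 weeks was that array for 7 genes, S100b (4.62, others 10.21 to 10.41), S100a1 (2.77, others 7.33 to 7.49), S100a13 (2.33, others 7 to 7.34), S100a4 (-0.36, others 4.55 to 4.84), S100a6 (0.76, others 4.7 to 4.84), S100a10 (1.37, others 6.51 to 6.77) and S100a11 (0.22, others 3.8 to 4.13). It had 93% of its probes above background. Naive replicate 4 of that interval was at 2.43 for S100a6 (others 3.78 to 3.99).

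Cortex naive replicate 1 of 24 hr stood above its group for S100a1 (7.95, others 7.35 to 7.44) and S100a10 (6.8, others 6.36 to 6.42). S100b of cortex sham replicate 3 at 24 hr was at 10.13 against 9.95 to 9.97. At 12 months naive replicate 3 was high for S100a4 in both tissues, at 5.32 in the cortex (others 4.04 to 4.16) and at 6.19 in the hippocampus (others 5.35 to 5.44). S100a10 was at 6.32 in cortex naive replicate 1 of 6 months (others 6.67 to 6.74) and at 7 in hippocampus sham replicate 3 of 3 months (others 6.25 to 6.35). S100a9 was at 0.5 in hippocampus naive replicate 3 of 3 months (others -0.88 to -0.67).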

How the results depend on the processing

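Most limits come from groups of 2 to 4 arrays and from dim S100a8 signals. The rises of S100a4, S100a6 and S100a10 in the hippocampus at 24 hr kept their direction and call under every alternative but testing all probes. Numbers below are how many members were called, with the count of the report in parentheses, and the cause of a change was not tested.

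With the methods' thresholds, TBI against sham in the cortex gave 4 at 24 hr (0) and 1 at 2 weeks (0), then 2 each at 3 and 6 months (0), and in the hippocampus 2 at 2 weeks (0), 1 at 3 months (0) and 3 at 6 months (0). With normexp background correction, which called 4231 probes higher and 67 lower there instead of 73 and 1, the cortex at 24 hr gave 4 (0) and the hippocampus at 2 weeks 2 (0). Scaling to the 75th percentile and the authors' table gave 1 each in the cortex at 2 weeks (0) and in the hippocampus at 2 weeks (0), where quantile normalization and a filter on both groups also gave 1. With no filter on dim probes TBI against sham gave 2 in the cortex at 24 hr (0), 1 at 2 weeks (0), and 0 in the hippocampus at 24 hr (6). Without both arrays that stand apart, the cortex at 2 weeks gave 3 against sham (0) and 4 against naive (0), and the cortex average 4 (1).

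For sham against naive, the cortex at 24 hr gave 1 (2) with the 75th percentile, quantile normalization, the authors' table or no filter. At 12 months in the cortex it gave 0 (1) with quantile normalization, normexp, 2 groups alone, the mean over probes or the replicate block. In the hippocampus it gave 0 (1) at 2 weeks with normexp, no filter, 2 groups alone or the block, and at 6 months 6 with the 75th percentile, 4 with quantile normalization, 1 with normexp and 6 with the authors' table (0). For TBI against naive, the cortex at 2 weeks gave 2 with the 75th percentile, 1 with the authors' table and 4 with 2 groups alone (0), and at 3 months 1 with the 75th percentile (0). The hippocampus at 2 weeks gave 1 with the authors' table, a filter on both groups or the block and 0 with no filter or 2 groups alone (2). At 6 months it gave 1 with the 75th percentile or the authors' table (0), and at 12 months 1 with a filter on both groups (0).

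The cortex average gave 2 with the 75th percentile or quantile normalization, 4 with normexp and 3 with no filter (1). For 24 hr minus 2 weeks in the cortex the 75th percentile and normexp gave 1 (0), and for 24 hr minus 12 months no filter gave 1 (0). Naive 12 months against 2 weeks in the hippocampus gave 1 with normexp or the block and 0 with no filter (2). Naive hippocampus against cortex gave 8 with the 75th percentile or the authors' table and 7 with quantile normalization or normexp (4).

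Leaving out each array in turn, the count for TBI against sham ran from 0 to 3 in the cortex at 24 hr (3 without TBI replicate 3), 0 to 1 at 2 weeks (sham replicate 3) and 0 to 1 at 6 months (TBI replicate 2, the same against naive, 0 to 1). In the hippocampus it ran from 3 to 6 at 24 hr and from 0 to 2 at 2 weeks (TBI replicate 2). Sham against naive ran from 2 to 3 in the cortex at 24 hr, 0 to 1 at 12 months, 0 to 0 in the hippocampus at 2 weeks and 0 to 3 at 6 months (3 without naive replicate 2). TBI against naive ran from 6 to 8 in the cortex at 24 hr and, in the hippocampus, from 0 to 1 at 2 weeks and 0 to 2 at 12 months (2 without naive replicate 1 or TBI replicate 3). The cortex average ran from 1 to 3, 24 hr minus 2 weeks from 0 to 2 and 24 hr minus 12 months from 0 to 1. The hippocampus average ran from 0 to 1, 2 weeks minus 12 months from 0 to 1, naive 12 months against 2 weeks from 0 to 1 and the naive tissues from 4 to 6. S100a4 in the hippocampus at 12 months (-0.10, from -0.35 to 0.18 over these runs) turned to 0.02 without sham replicate 2 and to 0.18 without TBI replicate 4.

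Scaling also moved the numbers of all called probes. In the cortex at 6 months TBI against sham had 20 higher and 0 lower, and 327 and 3 with normexp, and at 24 hr the 75th percentile left 1 and 0. The hippocampus at 24 hr had 943 higher and 1312 lower, and 2406 and 1077 with normexp. At 2 weeks it had 231 and 232, and 370 and 69 with the 75th percentile. At that interval sham against naive had 1300 and 775, and 1386 and 210 with normexp, and TBI against naive 1019 and 2221, and 1249 and 83 with normexp. In the cortex TBI against naive had 1649 and 2843 at 24 hr and 2437 and 1206 with normexp, and at 12 months 800 and 422 against 1793 and 185. Sham against naive at 12 months had 1073 and 65, and 854 and 217 with the 75th percentile. In the hippocampus at 6 months sham against naive had 688 and 40, and 1728 and 2146 with the 75th percentile, and TBI against naive 821 and 17, and 1279 and 1667. At 12 months TBI against naive had 317 and 443, and 1062 and 22 with normexp, and sham against naive 651 and 186, and 2500 and 53.

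The replicate numbers do not pair the groups of a tissue and interval. Deviations of same-numbered arrays correlated from -0.43 to 0.56, and all 4 pairs were over 0.1 only for TBI against sham in the cortex at 12 months (0.13 to 0.26). Between hippocampus and cortex all pairs were at 0.1 or above for naive 2 weeks (0.12 to 0.295), TBI 2 weeks (0.1 to 0.43), sham 6 months (0.231 to 0.327), TBI 6 months (0.265 to 0.475) and naive 12 months (0.303 to 0.452), and not for the other 4 groups. With that block naive hippocampus against cortex gave 5 members (4), and no difference of TBI effects between tissues was called. With the replicate block the S100a8 rise in the hippocampus at 24 hr had an adjusted p of 0.0513 and S100a11 of 0.078, both lost, while S100a4, S100a6 and S100a10 stayed called (0.0398 each). A slide block was not run, since each group lies on 1 slide.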
